A study of Bos grunniens with 18 samples.

Results

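The m6A readers are the proteins that bind N6-methyladenosine (m6A), a modified base of mRNA, and act on the transcripts that carry it. Here 10 reader genes were examined in the epididymis of yaks (Bos grunniens), chosen by symbol: Ythdf1, YTHDF2, YTHDF3, Ythdc1, YTHDC2, Fxr1, FXR2, FMR1, EIF3A and HNRNPA2B1. Each of these symbols was present, and together they named 16 of the 18467 gene models of the deposited expression table. A single gene model carried each of 7 symbols, while YTHDF2 and YTHDF3 had 2 each, and HNRNPA2B1 had 5. The animals were 6 healthy adult males aged 4 years, and all groups share this background, with no treatment or mutation. The epididymis, the duct in which sperm mature after the testis, was divided into head (caput), body (corpus) and tail (cauda). Poly(A) RNA was fragmented and sequenced with (RIP) and without (input) enrichment by an antibody against m6A, and caput, corpus and cauda each gave 3 RIP and 3 input libraries. No label ties a library to its animal, so the spread between libraries may be technical.

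As background, the YTH family recognises m6A through a shared YTH domain. The YTHDF proteins act in the cytoplasm, where YTHDF2 is known for recruiting the CCR4-NOT deadenylase to methylated mRNAs, while YTHDC1 is nuclear and works in splicing and export. YTHDC2 is an RNA helicase that mouse germ cells need for meiosis. FMR1, FXR1 and FXR2 form the fragile X family of RNA-binding proteins, EIF3A is the scaffold subunit of translation initiation factor eIF3, and HNRNPA2B1 is a nuclear ribonucleoprotein. The readers' own transcripts can carry m6A, so each gene was described by its level in the input RNA and by the m6A peaks on its own transcript.

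The expression table has 9 input columns whose codes (EA, EB and EC, 3 libraries each) match no region label. Levels are therefore given library by library, and no region is assigned to a code. The values behave as whole reads divided by gene length and library total, and the totals recovered in this way were 23619274 to 29808859 reads. LCN5, a secretory lipocalin of the epididymis, ranged over the 9 libraries from 1951 to 113865 FPKM, and 12 of the 15 principal cell markers found had a median of at least 1 FPKM. Library EC2_2 stood apart. It had the lowest summed FPKM of principal cell markers (12350, against a median of 67110 over the 9 libraries) and the highest of sperm and spermatid markers (2132, median 357), smooth muscle (7365, median 4360), leukocytes (88.0, median 42.4), endothelium (58.7, median 38.6) and multiciliated cells (38.1, median 1.55). The principal cell sum leans on LCN5, which made up 113865 of its 156800 FPKM in EA3_1 and was lowest (1951) in EC2_2. Of the other marker lists, basal cells ranged from 65.6 to 115 in summed FPKM. Clear and narrow cells ranged from 1.11 to 28.1 and erythrocytes from 0 to 2.04. In bulk tissue, fewer cells of a type and less RNA per cell cannot be told apart.

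The cytoplasmic YTHDF readers could be measured unevenly. YTHDF2 had 23.1, 23.0 and 23.5 FPKM in the EA libraries, 26.6, 24.7 and 23.1 in the EB libraries and 26.5, 23.0 and 22.0 in the EC libraries. EB1_3 and EC2_2 were the highest libraries and EC4_1 the lowest, and the highest was 1.21 times the lowest. Of 6285 genes with a median of at least 10 FPKM, 0.239% varied by a smaller factor, and the median gene varied 2.02-fold. A second YTHDF2 model of 144 bases had 26 to 51 reads per library, so 96.6% of the reads of this symbol fell on the model of 1614 bases.

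Ythdf1 is represented by a model of only 159 bases. It had 45.3, 36.3 and 45.8 FPKM in the EA libraries, 48.6, 32.3 and 40.8 in the EB libraries and 43.5, 43.1 and 37.8 in the EC libraries, from 137 to 192 reads. EB1_3 was its highest library and EB1_4 its lowest, and its rank rests on few reads over a short model. YTHDF3 has models of 177 and 156 bases, with 0 to 14 and 0 to 7 reads per library. The first had 14 reads in EA3_1 (2.65 FPKM, exact Poisson interval 1.45 to 4.45) and 0 in EB2_1, where 3 reads would be 0.684 FPKM. By counting error the EA3_1 value lay above that of EB2_1 and above those of EA2_1 and EB1_4 (1 read each, with upper limits of 1.28 and 1.18 FPKM), while its interval overlapped those of the other libraries. Such intervals cover counting error only.

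Of the nuclear and helicase YTH readers, Ythdc1 was the more abundant. Ythdc1 had 37.1, 27.2 and 39.9 FPKM in the EA libraries, 39.7, 30.4 and 29.6 in the EB libraries and 32.8, 25.01 and 31.0 in the EC libraries. YTHDC2 had 2.49, 2.58 and 3.30 FPKM in the EA libraries, 6.52, 3.34 and 2.30 in the EB libraries and 3.54, 2.33 and 4.03 in the EC libraries. EA4_1 and EB1_3 were the highest for Ythdc1, and EB1_3 lay well above the other libraries for YTHDC2. The highest Ythdc1 library was 1.595 times its lowest, and the highest YTHDC2 library was 2.83 times its lowest.

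Within the fragile X family the spread over libraries differed, from 1.28-fold for FXR2 to 2.86-fold for Fxr1. Fxr1 had 32.5, 19.3 and 24.3 FPKM in the EA libraries, 21.1, 16.6 and 14.8 in the EB libraries and 42.3, 16.1 and 18.6 in the EC libraries. The highest Fxr1 value was in EC2_2, the library with the most sperm, muscle, leukocyte, endothelial and ciliated cell markers, and the part of those cells in it was not tested. Without EC2_2, Fxr1 ranged from 14.8 to 32.5 FPKM with a median of 18.95.

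FXR2 had 31.5, 32.0 and 33.7 FPKM in the EA libraries, 32.0, 37.8 and 40.4 in the EB libraries and 34.3, 35.2 and 37.9 in the EC libraries. EB2_1 was its highest library and EA2_1 its lowest, and 1.46% of the genes compared varied by a smaller factor. FMR1, the founding member of the family, was lower, at 3.09 to 6.74 FPKM with a median of 5.37. Its highest libraries were EB1_3, EC2_2 and EC4_1, and EB2_1 was its lowest.

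EIF3A and HNRNPA2B1 were the most abundant readers. EIF3A had 50.6, 56.4 and 64.6 FPKM in the EA libraries, 76.5, 64.0 and 54.7 in the EB libraries and 64.5, 57.2 and 61.1 in the EC libraries. HNRNPA2B1 had 259, 231 and 245 FPKM in the EA libraries, 302, 227 and 206 in the EB libraries and 222, 227 and 247 in the EC libraries. EB1_3 was the highest library for both, EA2_1 the lowest for EIF3A and EB2_1 the lowest for HNRNPA2B1. The median of HNRNPA2B1 was higher than that of 97.8% of all gene models. Of the reads of its 5 models, 98.2% fell on that of 1780 bases, and reads of near-identical copies may have been split between them.

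**Figure D1:**
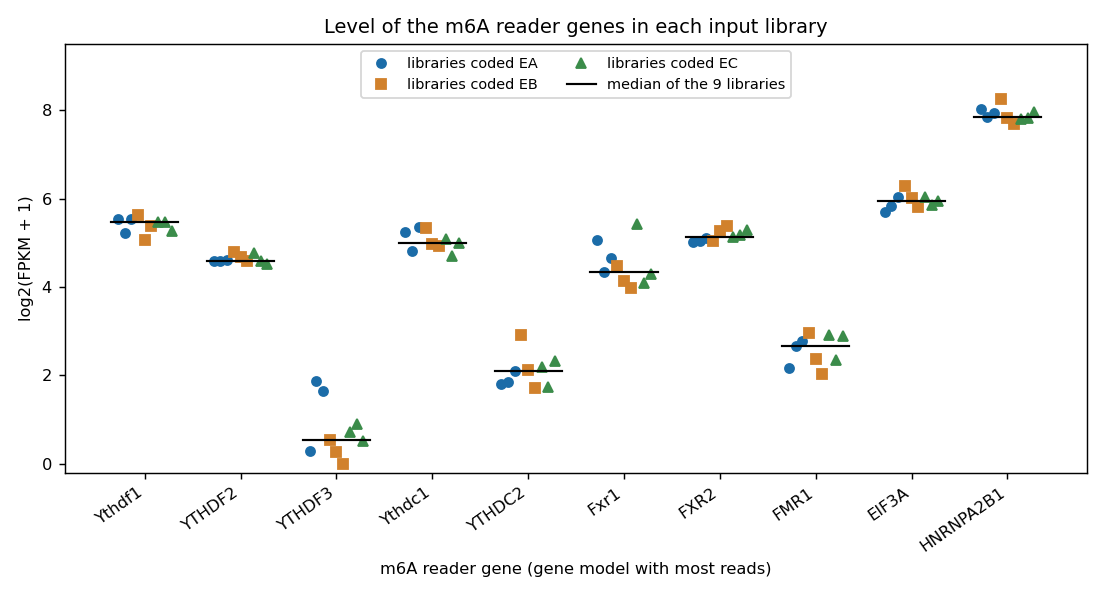
Level of each m6A reader gene, as log2(FPKM + 1), in the 9 input libraries, with a marker for each library code and a line at the median. HNRNPA2B1 lies highest (206 to 302 FPKM), YTHDF3 lowest (0 to 2.65 FPKM), and the points of YTHDF2 and FXR2 lie closest together among the genes drawn.

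Ordered by median FPKM, which is per length, the readers ran HNRNPA2B1 (231), EIF3A (61.1), Ythdf1 (43.1), FXR2 (34.3), Ythdc1 (31.0), YTHDF2 (23.1), Fxr1 (19.3), FMR1 (5.37), YTHDC2 (3.30) and YTHDF3 (0.455). The YTHDF3 value is that of a 177-base model with 0 to 14 reads per library, which may not stand for the whole gene. Its other model had a median of 0.860 FPKM. The 9 values of HNRNPA2B1 lay above all those of EIF3A, which lay above all those of Ythdf1. From Ythdf1 to Fxr1 each neighbour overlapped the next, and so did FMR1, YTHDC2 and YTHDF3. No library of Fxr1 fell as low as the highest of FMR1. EB1_3 was the highest library for 6 of the 10 readers and EB2_1 the lowest for 5. The share of all genes with these extremes is not given here, so these counts are not read as a trait of the readers.

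The input profile most like that of each reader was sought among 12054 genes by Pearson's r of log2(FPKM + 1) over the 9 libraries. The nearest genes were AGFG1 for Fxr1 (r = 0.986), PHF3 for YTHDC2 (0.977), PRPF3 for Ythdc1 (0.975), RTL8A for FXR2 (0.965), Relch for FMR1 (0.965), FAM234B for YTHDF3 (0.963), TTC14 for EIF3A (0.962), ANKRD10 for YTHDF2 (0.958), DSP for HNRNPA2B1 (0.949) and PHF5A for Ythdf1 (0.926). These values are descriptions of 9 libraries that differ in cell make-up, chosen as the highest of many, and that of YTHDF3 rests on at most 14 reads.

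The m6A peaks on the readers' own transcripts were taken from the authors' 3 comparisons of a pair of regions. As these tables summarise each peak over libraries, they allow no replicate error or depth for it. Whether the folds are relative to input is a point not given in the sources used here. A higher peak may thus reflect more methylation or more transcript, and these cannot be told apart. Of the 16 gene models, 10 had a peak, from 8 of the 10 symbols. Ythdf1 and YTHDF3 had none. Their models are under 200 bases long, and 1 of all 218 models that short had a peak, against 58.7% of 14533 models of at least 1000 bases. With a median of at least 10 FPKM, which Ythdf1 reached and YTHDF3 did not, 0 of 61 such short models had a peak, against 80.1% of 4806 long ones.

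The longest reader peak was that of EIF3A. It covered 2700 exonic bases on chromosome 25 from 42627820 to 42641996 (minus strand, build not given in the sources used here), which is 60% of the 4499-base model. In the corpus and caput comparison 15 of 14061 peaks, this one among them, were at least that long. YTHDF2 carried 1 peak of 734 bases with no splice gap on chromosome 2 from 13072434 to 13073167 (plus strand), 45.5% of its model. Ythdc1 had 2 peaks over 43.4% to 47.2% of its model and Fxr1 had 3 peaks over 38.5% to 39.8%. FXR2 peaks covered 24.1% to 37.2% of its model. Over all genes with a peak the median share was 20.2% to 20.9%, depending on the comparison. FMR1 had 32.8% and 36.4% in the comparisons with the caput and 5.5% in that of cauda and corpus. The main HNRNPA2B1 model had 11.2% to 55.7%. These shares count only the peaks that a comparison holds. The cauda and corpus comparison lacked FMR1 peaks that the lists of candidate sites of both regions hold. The corpus and caput comparison lacked an HNRNPA2B1 peak (55139094 to 55142778) listed in all 3 regions. The lower shares therefore do not show less peak coverage. YTHDC2 lay far below the median, with 1 peak in each of the comparisons that held one. These were different peaks, of 151 bases (corpus and caput) and 201 bases (cauda and corpus). They covered 3.51% and 4.68% of its 4297 bases.

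**Figure D2:**
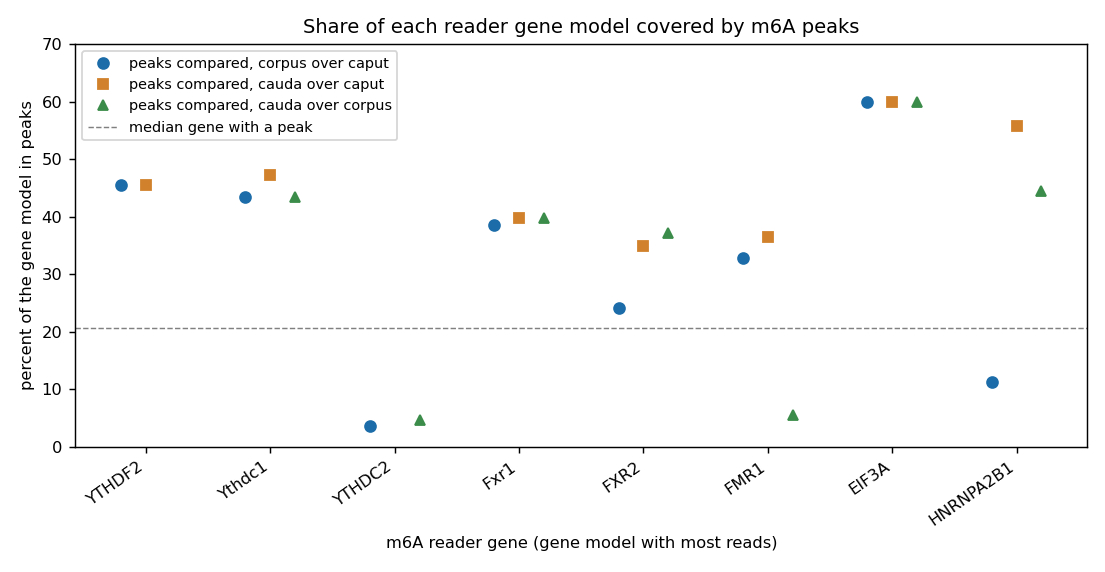
Percent of each reader's gene model that lay in m6A peaks, for the peaks of each of the 3 comparisons, with a dashed line at the median of all genes with a peak. EIF3A reached 60% in each comparison and YTHDC2 stayed under 5%.

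The authors listed candidate adenosines within the peaks of each region, each with a combined prediction score, and classed those scoring at least 0.557 as m6A sites. The score follows the position and not the region. The reader peaks held 145 candidate positions, of which 35 (24.1%, 95% Wilson interval 17.9 to 31.7) were classed as sites, against 18.7% of all 143390 positions. YTHDF2 accounted for 12 of the 35. Without it the readers' share was 18.4% (12.6 to 26.1).

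The YTHDF2 peak was the most densely classed of the readers. Of its 20 candidates 12 were classed as sites (60%, 95% Wilson interval 38.7 to 78.1), and 3 of them were of very high confidence, at positions 13072488 (score 0.784), 13072816 (0.743) and 13072854 (0.700). All 20, which lie in 1 peak, were listed in caput, corpus and cauda. So were all 27 candidates of EIF3A, 108 of the 145 reader positions and 65697 of all 143390 positions. The intervals cover counting error, and neighbouring candidates share sequence. One further very high score fell on YTHDC2, at position 23079409 of chromosome 11 (0.697), in a peak listed in the corpus alone.

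YTHDC2 had 2 classed sites among only 4 candidates (50%, 95% Wilson interval 15.0 to 85.0), an interval that overlaps that of YTHDF2. On the other transcripts, pooled over their peaks, classed sites made up at most 25% of the candidates. Single peaks held more, such as 5 of 11 in the 3'-most Fxr1 peak and 3 of 6 in an HNRNPA2B1 peak. Fxr1 had 6 of 27, and 5 of them lay in the 3'-most peak (chromosome 1 from 93725068 to 93727182, minus strand), led by positions 93725184 (0.629) and 93725251 (0.627). FXR2 had 3 of 13, led by 40761063 on chromosome 19 (0.653), listed in the cauda alone. FMR1 had 2 of 13, led by 21285042 on chromosome X (0.618), Ythdc1 1 of 15 and EIF3A 3 of 27, the last led by 42639469 (0.649). HNRNPA2B1 had 4 of 18 on its main model and 2 of 8 on the model ENSBGRG00000009523.

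**Figure D3:**
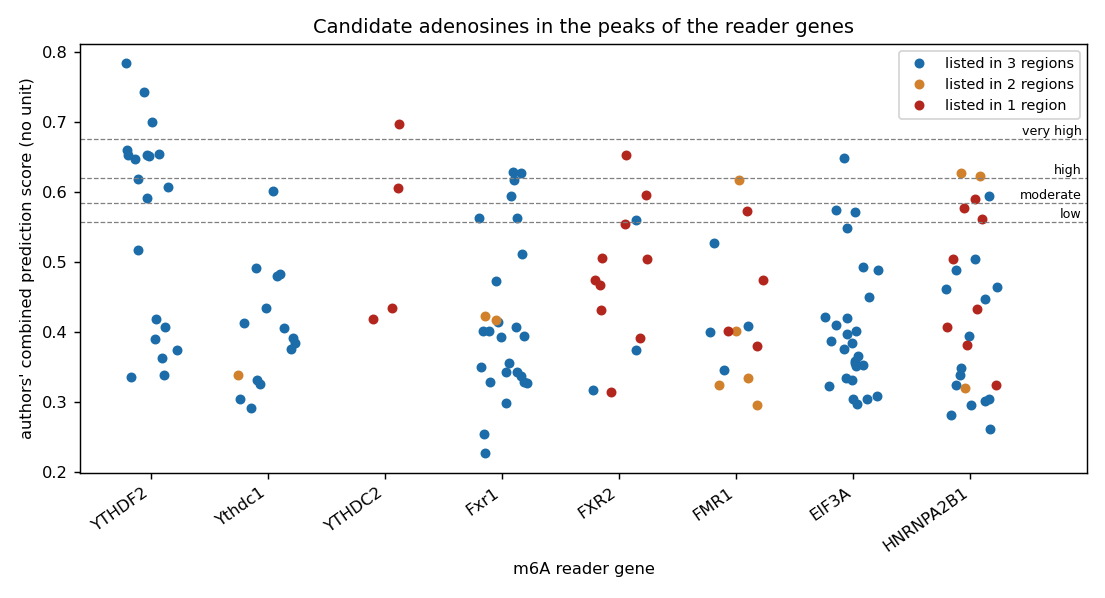
Combined prediction score of each candidate adenosine in the readers' peaks, coloured by the number of regions that list it, with dashed lines at the lowest score of each confidence class. YTHDF2 holds 3 of the 4 very high scores. Its 20 candidates, like the 27 of EIF3A, are all listed in 3 regions.

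Most reader peaks were listed in more than 1 region. By an overlap of at least 1 base this held for 12 of 13 peaks in the caput list, 13 of 14 in the corpus list and 12 of 12 in the cauda list. The share over all listed peaks is not given here, so these counts are not read as a trait of the readers. The exceptions among the reader peaks were the YTHDC2 peak in the corpus and an HNRNPA2B1 peak in the caput (chromosome 4 from 55143087 to 55147274), which held 6 candidates and 3 classed sites. An FXR2 peak in the corpus (chromosome 19 from 40762584 to 40762986) counted as shared only by 1 base, with a cauda peak that ends at 40762584. At an overlap of 50% it was shared with 0 regions. The authors' deposited table gave that HNRNPA2B1 peak log2 folds of -0.07 in the corpus over the caput (adjusted p = 0.615) and -0.09 in the cauda over the caput (adjusted p = 0.372), so its listing in the caput alone did not go with a called difference.

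Between regions, the reader peaks called numbered 0, 1 and 1 in the 3 comparisons. In the corpus over the caput the authors' deposited table held 14 reader peaks, and 0 passed the threshold of 0.05 on its adjusted p, where 2.98% of all peaks did (1.12% higher and 1.86% lower in the corpus). Without adjustment 2 of the 14 lay under 0.05 in the authors' deposited table, against 16.4% of all peaks. The authors' deposited table gave them a median log2 fold of 0.06, against -0.02 over all peaks, and 12 of the 14 lay within 0.3 of zero, against 66.9% of all peaks.

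Taking the peak of lowest p for each gene, the authors' deposited table gave log2 folds for corpus over caput of 0.51 for the 5'-most peak of Fxr1 (adjusted p = 0.303), 0.23 for the 5'-most peak of Ythdc1 (adjusted p = 0.438), 0.23 for FXR2 (adjusted p = 0.586) and 0.02 for FMR1 (adjusted p = 0.920). For genes with 1 peak the authors' deposited table gave -0.09 for EIF3A (adjusted p = 0.0871), 0.66 for YTHDC2 (adjusted p = 0.838), -0.07 for HNRNPA2B1 (adjusted p = 0.615) and -0.09 for YTHDF2 (adjusted p = 0.966). EIF3A thus had the lowest adjusted p and a small fold, and YTHDC2 the largest fold of these without a call.

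Fxr1, an RNA-binding protein of the fragile X family, was the reader with a called peak in the cauda over the caput. The peak, on chromosome 1 from 93756223 to 93757325, was the 5'-most of the 3 Fxr1 peaks and stood higher in the cauda, with a log2 fold of 0.76 (1.69-fold) and an adjusted p of 0.0263 by the authors' deposited table. It was 1 of 15 reader peaks, where 2.27% of all peaks were called (1.41% higher and 0.861% lower in the cauda). For the other Fxr1 peaks the authors' deposited table gave 0.25 (adjusted p = 0.272) and 0.08 (adjusted p = 0.703). The called peak was listed in the cauda and corpus and not in the caput, and held 1 candidate, at 93757294, which was not classed as a site. The region lists hold candidates, so a peak without one is not listed (16 of 20 merged reader peaks held one). A form of this peak that ends at 93757275 holds none. Absence from the caput list therefore does not show that the caput lacked the peak.

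The same Fxr1 peak had a log2 fold of 0.27 in the cauda over the corpus by the authors' deposited table (adjusted p = 0.708). A shorter form, ending at 93757275, had 0.51 in the corpus over the caput by the authors' deposited table (adjusted p = 0.303). The 3 comparisons share libraries.

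The other readers had no called peak in the cauda over the caput. At their lowest p the authors' deposited table gave log2 folds of 1.13 for the HNRNPA2B1 model ENSBGRG00000009523 (adjusted p = 0.186), 0.27 for Ythdc1 (adjusted p = 0.301), 0.17 for FXR2 (adjusted p = 0.361) and -0.09 for the main HNRNPA2B1 model (adjusted p = 0.372). The authors' deposited table further gave 0.20 for FMR1 (adjusted p = 0.721), -0.09 for YTHDF2 (adjusted p = 0.820) and -0.05 for EIF3A (adjusted p = 0.953). Over the 15 peaks the median was 0.05 and over all peaks 0.04 in the authors' deposited table. There 4 of 15 reader peaks lay under 0.05 without adjustment, where 17.2% of all peaks did.

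FXR2, the Fxr1 paralog, carried the called peak in the cauda over the corpus. The peak, on chromosome 19 from 40762584 to 40762986 (plus strand), stood lower in the cauda, with a log2 fold of -0.50 (0.708-fold) and an adjusted p of 0.01995 by the authors' deposited table. It was 1 of 14 reader peaks, where 1.96% of all peaks were called (1.24% higher and 0.719% lower in the cauda). For the other 3 FXR2 peaks the authors' deposited table gave 0.26 (adjusted p = 0.413), 0.21 (adjusted p = 0.789) and 0.09 (adjusted p = 0.771), so the called peak had the opposite sign to its neighbours. Its candidates numbered 0 in the cauda list and 3 in the corpus list, and 0 of the 3 were classed as sites. A shorter form, starting at 40762633, had a log2 fold of 0.23 in the corpus over the caput by the authors' deposited table (adjusted p = 0.586).

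The remaining readers had no called peak in the cauda over the corpus. At their lowest p the authors' deposited table gave log2 folds of 0.04 for EIF3A (adjusted p = 0.327), 0.025 for Fxr1 (adjusted p = 0.608), 0.17 for Ythdc1 (adjusted p = 0.735) and 0.01 for YTHDC2 (adjusted p = 0.916). The authors' deposited table further gave -0.42 for FMR1 (adjusted p = 0.997) and 0.05 for the main HNRNPA2B1 model (adjusted p = 0.998). These YTHDC2, FMR1 and HNRNPA2B1 peaks lay elsewhere on their transcripts than those given above for the comparisons with the caput. The HNRNPA2B1 model ENSBGRG00000014054 had few reads in the input libraries (0 to 42 per library, median 0.067 FPKM). Its peak (chromosome 8 from 16488716 to 16488862) had the widest log2 fold of the reader peaks, -1.93, and was not called in the authors' deposited table (adjusted p = 0.710). There 2 of 14 reader peaks lay under 0.05 without adjustment, where 16.4% of all peaks did. Over the 14 peaks the median was 0.045 and over all peaks 0.046 in the authors' deposited table. The comparison of cauda and corpus used here held no YTHDF2 peak, although the lists of both regions did. The largest unadjusted p in the authors' deposited table of that comparison was 0.827.

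**Figure D4:**
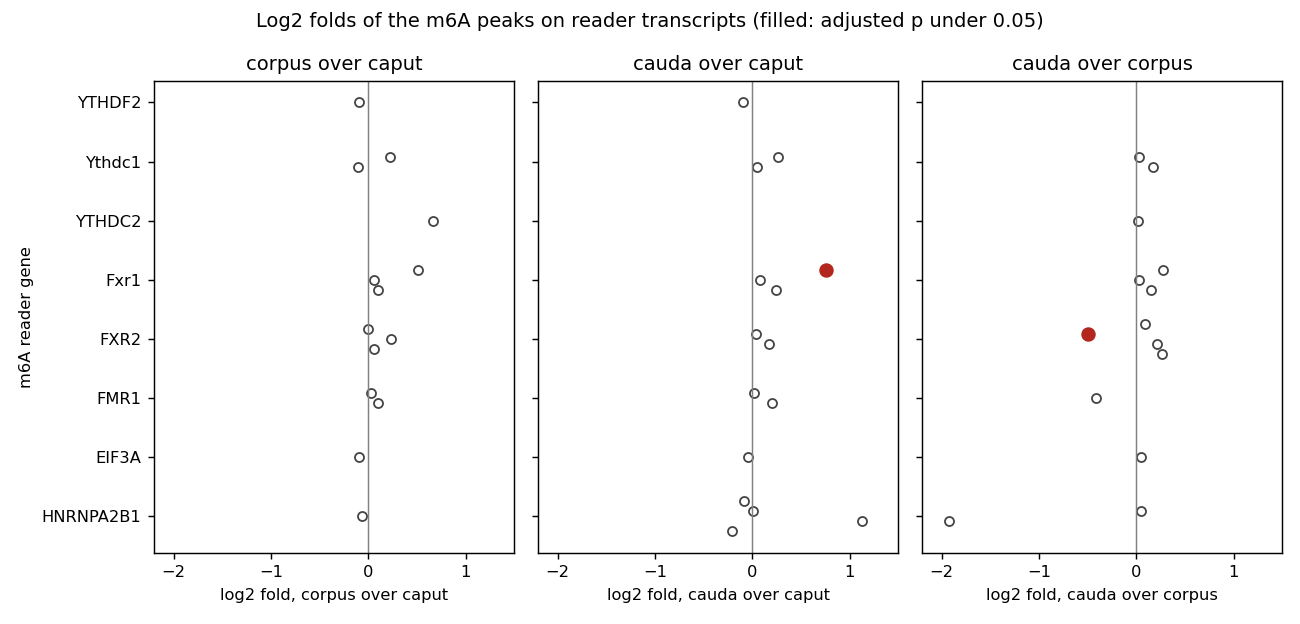
Log2 fold of every m6A peak on a reader transcript in the authors' 3 comparisons, with peaks at an adjusted p under 0.05 filled. A single peak is filled for Fxr1 (0.76, cauda over caput) and for FXR2 (-0.50, cauda over corpus), and most others lie close to zero.

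Of the rest of the m6A machinery and the readers' partners, 0 of 77, 2 of 73 and 1 of 72 peaks were called (corpus over caput, cauda over caput, cauda over corpus), where 2.98%, 2.27% and 1.96% of all peaks were, so these counts are near those over all peaks. Writers had 0, 1 and 0 called peaks among 21, 18 and 20 in the same order, the 1 being in Virma, a scaffold of the methyltransferase complex, and erasers had 0 among 4, 3 and 2. Other reported m6A binders such as the IGF2BP proteins had 0 among 17, 20 and 20. The other eIF3 subunits had 0 among 13, 10 and 11, and other hnRNP A and B genes 0 among 4, 5 and 6. Without adjustment, these lists and the partners of the readers held 12 of 77, 17 of 73 and 11 of 72 peaks under 0.05 in the authors' deposited table, where 16.4%, 17.2% and 16.4% of all peaks lay there.

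Among partners of the readers, RBM46 was called in both comparisons with the cauda. RBM46 is an RNA-binding protein that acts with YTHDC2 in mouse germ cells. The authors' deposited table gave its peak on chromosome 16 a log2 fold of 0.35 in the cauda over the caput (adjusted p = 3.16e-04) and 0.47 in the cauda over the corpus (adjusted p = 0.00525). The partners held 18, 17 and 13 peaks in the 3 comparisons, of which 0, 1 and 1 were called, where 2.98%, 2.27% and 1.96% of all peaks were. RBM46 had 0.30 to 6.45 FPKM in the input libraries, with a median of 3.22, and the comparisons share the cauda libraries.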

How the data were processed

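MeRIP-seq libraries were 9 RIP and 9 input. Trimmomatic, HISAT2 and deepTools are named, without versions, in the submitters' processing notes. Peak caller, differential test, site predictor and build: not given in the sources used here. The deposited candidate lists give a prediction score per adenosine, pooled by region, per the file headers. Repeated lines were counted once at the highest score. The authors' comparison tables give p-values, adjusted p-values, a fold (ratio) and its log2 value per peak, per the file headers, and the exonic length of the peak (other). Folds were read as first-named over second-named region. Peaks without splice gap whose candidates were listed in the first region alone had median log2 folds of 0.32, 0.39 and 0.40, and those of the second alone -0.38, -0.27 and -0.30. Starts are printed counting from 1.

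The deposited FPKM values were found to be whole reads (tolerance 0.005) for integer totals and lengths, with recovered reads summing to over 99.98% of each total. Tested on simulated data (4000 genes, 9 libraries), this recovered all 9 totals and 99.8% of genes with a read. No count test was run, since the column codes match no region. Each p-value is the authors'; no test was refitted. A peak was called at an adjusted p under 0.05, and all members, called peaks and lowest-p peaks were named, with called peaks of other lists and the most similar gene (pseudocount 1, median of at least 1 FPKM). Members and lists were chosen with earlier results of these data known. Python 3.11.15, pandas 2.3.3, numpy 2.4.6 and statsmodels 0.14.6 were used.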

Additional observations from a re-analysis of the deposited data

Results flagged for a closer look

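YTHDC2 stood out in 1 input library. Its level in EB1_3 was 6.52 FPKM (696 reads), and the gap to the next library (4.03 FPKM) was 0.589 of the whole range, which is beyond Dixon's limit for 9 values. This gap was taken on FPKM without a log, and whether the flag holds on the log2 scale was not tested. Without EB1_3 the gene ranged from 2.30 to 4.03 FPKM with a median of 2.94. The 9 libraries come from 3 regions that the codes do not name, so they are not replicates of 1 condition. EB1_3 was also the highest library of 6 of the 10 readers, a count without the share over all genes beside it. Each of the 16 reader models was screened, and chance alone flags about 5% of groups if their values are normally spread.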

How the results depend on the processing

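No paired analysis was possible because the comparison tables carry no values per library and the input columns no region. At an unadjusted p under 0.05 the reader peaks called were 2, 4 and 2 (corpus over caput, cauda over caput, cauda over corpus), in place of 0, 1 and 1. At an adjusted p under 0.01, with an absolute log2 fold of at least 1 added, or among peaks without a splice gap, they were 0 in each comparison, so the calls of Fxr1 and FXR2 rest on the threshold of 0.05 and on spliced peaks. Peaks without a splice gap numbered 1, 3 and 1, and their median log2 folds were -0.091, -0.0915 and -1.93, opposite in sign to those of all reader peaks. Counting the main model of each symbol alone changed no count of calls. The share of candidates classed as sites was 11.0% at high confidence or better and 15.8% with repeated lines counted. Over all 143390 positions, 7635 were of high and 2720 of very high confidence, against 12 and 4 of the 145 reader positions. For the share with repeated lines no value over all positions is given here. An overlap of 50% left 11 of 13, 12 of 14 and 11 of 12 listed peaks shared. The pooled reads of the 5 HNRNPA2B1 models divided by their summed length gave a median of 51.0 FPKM, against 231 for the main model alone, since the minor models add length and few reads. The most similar gene changed for 1 reader with a pseudocount of 0.1 and for 2 without the filter on low values. Assigning candidates by exon was not run, since the tables give no exon blocks.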

Other observations

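A minor HNRNPA2B1 model, ENSBGRG00000014054 (1119 bases, chromosome 8), had few reads, most of them in the EC libraries. It held 32, 42 and 28 reads in EC2_2, EC3_2 and EC4_1, against 1, 2 and 6 in the EB libraries and 0 in each of the 3 EA libraries, where 3 reads would be 0.0899 to 0.114 FPKM. The main HNRNPA2B1 model had 222 to 247 FPKM in the EC libraries, 206 to 302 in the EB libraries and 231 to 259 in the EA libraries, so these overlapped. The region of each code is not given, and no test was made. How many of all gene models with so few reads lie apart by code is not given here either. Another minor model, ENSBGRG00000025442 (2178 bases), had 5, 6 and 15 reads in the EA libraries, 0, 0 and 1 in the EB libraries and 16, 0 and 0 in the EC libraries. Reads of near-identical copies may be shared among these models. FXR2 had 31.5, 32.0 and 33.7 FPKM in the EA libraries, 32.0, 37.8 and 40.4 in the EB libraries and 34.3, 35.2 and 37.9 in the EC libraries. Its highest EA value (33.7) thus lay only just below its lowest EC value (34.3). The share of all genes whose EA and EC values lie apart is not given here, so this is no trait particular to FXR2.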
